A study of Mus musculus with 2 samples.

Results

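Committed differentiating oligodendrocyte precursors, nuclei that carry transcripts of the step between progenitor and oligodendrocyte, were described in injured spinal cord of iNeuroD1GFP mice, whose transgene is named for the proneural factor NeuroD1 and a green fluorescent reporter. They were chosen by measured values from the library labelled distal region. A nucleus was a committed precursor when it held at least 2 UMIs (unique molecular identifiers, 1 per captured RNA molecule) over Gpr17, 9630013A20Rik, Bmp4 and Enpp6 together, and when at least 0.4% of its UMIs came from the 8 progenitor genes Pdgfra, Cspg4, Vcan, Lhfpl3, Megf11, Tnr, Sox6 and C1ql1. This selected 89 of the 7452 distal nuclei, or 1.19% (exact Clopper-Pearson 95% interval 0.96 to 1.47%), and 89 of 23814 nuclei in the series. They were set beside 378 distal progenitors that met the same progenitor share with 0 UMIs of the 4 transcripts, and beside 1314 distal oligodendrocytes with at least 0.706% of their UMIs over Mog, Mag, Mobp, Mal, Opalin, Ermn, Aspa and Prr5l and under 0.4% over the 8 progenitor genes. Another 98 progenitors held exactly 1 UMI of the 4 transcripts.

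Oligodendrocytes, the myelin-forming cells of the central nervous system, arise from progenitor cells that carry the receptor Pdgfra and the proteoglycan Cspg4 (NG2). Between the progenitor and the myelinating cell lies a short transitional state, in which the progenitor genes decline, the receptor Gpr17, the growth factor Bmp4, the phosphodiesterase Enpp6 and the non-coding transcript 9630013A20Rik are transiently expressed, and the first myelin genes appear. Cells in this state are called committed or differentiating oligodendrocyte precursors, and in adult cord they are scarce beside resting progenitors and mature oligodendrocytes.

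The distal library and a second library, labelled injury core, came from spinal cords of iNeuroD1GFP mice (n = 3) labelled 8 weeks old. The mice were injured at postnatal day 60, given tamoxifen at 100 mg/kg per day from day 5 to day 8 after injury and collected on day 10. By these dates the cords were collected at a later age than the labelled 8 weeks. Both libraries carry the same transgene and the same tamoxifen, and no uninjured or untreated cord was analysed here. The promoter that drives the transgene, and whether the 3 mice were pooled, are not given in the sources used here. The sample title calls the region distal, whereas the extraction protocol calls the tissue outside the core peri-injury. Nuclei were isolated from frozen tissue and their RNA was counted by 10x Genomics 3′ sequencing.

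The distal library held 19049572 UMIs with a median of 1743 per nucleus, and the core library held 30469263 UMIs in 16362 nuclei with a median of 1303. With 1 library per region there is no replicate, so no test was made. Intervals are 95% intervals for counting error (exact Poisson for levels, exact conditional for ratios, Clopper-Pearson for shares), and say nothing about variation between animals or dissections. Both libraries are labelled male, and the distal library goes against that label. Xist, the RNA of the inactive X chromosome in female cells, stood at 776 CPM (UMIs of the gene per 1000000 UMIs of the group) in the distal library and at 0.525 CPM in the core library, and Xist UMIs were found in 57.1% of distal and 0.0917% of core nuclei. UMIs of Y-linked genes were found in 31.1% of distal and 35.8% of core nuclei, and 17.2% of distal nuclei held both kinds. Among the 89 committed precursors 34 held only Xist, 11 only Y-linked UMIs and 33 both, against 148, 47 and 50 of the 378 progenitors without the 4 transcripts. The 2 libraries share 38 cell barcodes, of which 1 is a committed precursor.

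The committed precursors were sequenced more deeply than the nuclei they were set beside. Their median was 2870 UMIs, against 1425 in the progenitors without the 4 transcripts and 1944.5 in the oligodendrocytes. A nucleus with more UMIs has more chances to reach 2 UMIs of rare transcripts, so depth is part of the choice. For that reason levels are given as CPM over the summed UMIs of a group, 376462 in the committed precursors, 686101 in the progenitors without the 4 transcripts and 3243958 in the oligodendrocytes.

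Of the 4 transcripts, Enpp6 and 9630013A20Rik made up most of the choice. The committed precursors held 353 UMIs over the 4, of which 174 were Enpp6 in 76 nuclei, 138 were 9630013A20Rik in 52 nuclei, 25 were Bmp4 in 19 nuclei and 16 were Gpr17 in 15 nuclei. Enpp6 was the only one of the 4 in 21 nuclei, and 9630013A20Rik in 10. A single nucleus held all 4 transcripts, 13 held 3 of them, 44 held 2 and 31 held 1. The median nucleus had 3 such UMIs and the highest had 13. The 2-UMI threshold cut through a continuous range, since 35 nuclei held exactly 2 and the 98 progenitors just outside held exactly 1. The progenitor share was also continuous at its threshold: the lowest committed precursor had 0.40172% and the highest nucleus just outside, with at least 2 UMIs of the 4 transcripts, had 0.39677%. Among the committed precursors 16 lay under 0.5% and 5 (5.62%) also reached the oligodendrocyte share, against 8 (2.12%) of the progenitors without the 4 transcripts, while 29 further nuclei with at least 2 UMIs lay between 0.3 and 0.4%.

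The 2 transcripts that carried the choice differed in how far they set precursors apart from oligodendrocytes. Enpp6, a choline-specific phosphodiesterase of newly forming oligodendrocytes, had 462 CPM in committed precursors and 328 CPM in oligodendrocytes. 9630013A20Rik had 367 CPM in committed precursors and 21.9 CPM in oligodendrocytes. Bmp4, a secreted ligand of the TGF-beta superfamily, had 66.4 CPM in committed precursors and 3.08 CPM in oligodendrocytes, and Gpr17, an orphan receptor that restrains myelination, had 42.5 and 2.47 CPM. In all, 672 distal nuclei held at least 2 UMIs of the 4 transcripts, and 583 of them fell under the progenitor share. Of the oligodendrocytes, 296 (22.5%) held at least 2, and in 253 of these the UMIs were all Enpp6. Of the 5573 distal nuclei that were neither progenitors nor oligodendrocytes, with a median of 1694 UMIs, 5.15% (4.58 to 5.76%) held at least 2, and their levels were 81.4 CPM for Enpp6, 29.0 CPM for 9630013A20Rik, 3.73 CPM for Bmp4 and 2.76 CPM for Gpr17. The plot of the transcripts that chose the groups shows these levels.

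**Figure D1:**
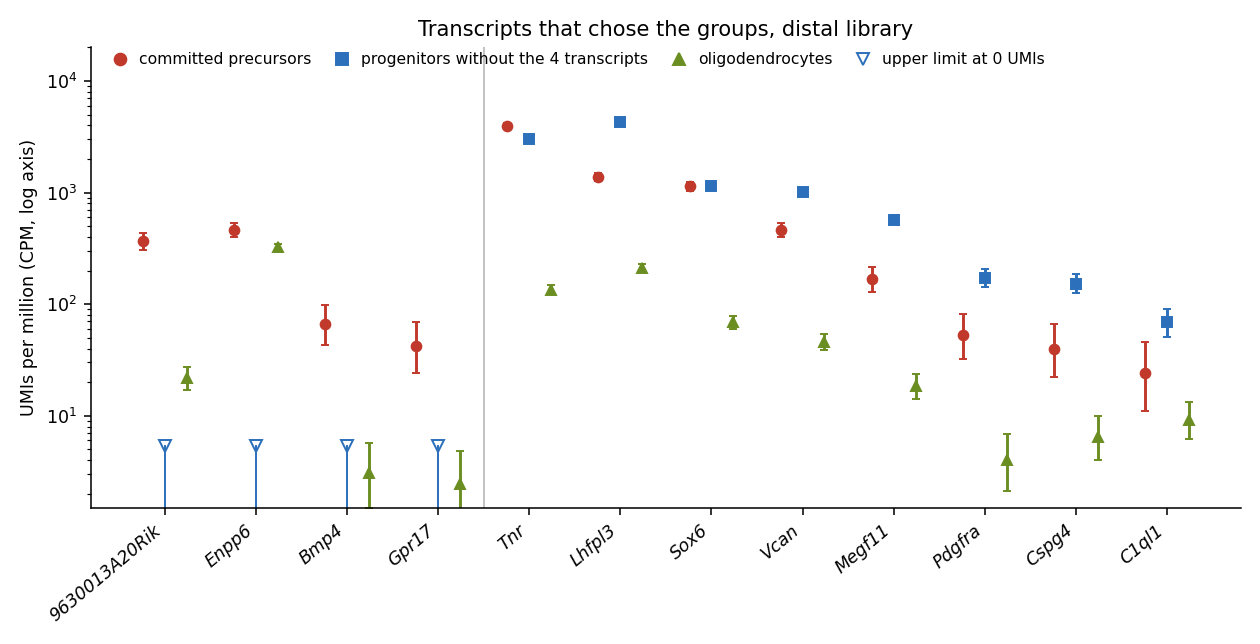
Level of the 4 committed transcripts (left of the grey line) and the 8 progenitor transcripts (right) in distal committed precursors, progenitors without the 4 transcripts and oligodendrocytes, in CPM on a log axis with exact Poisson 95% intervals. Open triangles mark the upper limit where 0 UMIs were counted, which the choice of the group fixed. Enpp6 lies close together in committed precursors (462 CPM) and oligodendrocytes (328 CPM), whereas 9630013A20Rik does not (367 and 21.9 CPM).

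The promoters of these 2 transcripts are shown because they carry the choice. Sequences are RefSeq windows on GRCm38.p6 that run from 250 bases before to 50 bases after the annotated start, 5′ to 3′ on the transcript's strand. 9630013A20Rik lies on chr14:84458639-84476424 (minus strand), is annotated as an antisense RNA, and its window is chr14:84476375-84476674. Enpp6 is a protein-coding gene on chr8:46986887-47096762 (plus strand) with the window chr8:46986637-46986936. Capitals mark matches to 3 motifs searched on both strands, which do not overlap in these windows: the SOX core ACAAAG, the E-box CAGCTG and the MYRF core CTGGNAC.
9630013A20Rik: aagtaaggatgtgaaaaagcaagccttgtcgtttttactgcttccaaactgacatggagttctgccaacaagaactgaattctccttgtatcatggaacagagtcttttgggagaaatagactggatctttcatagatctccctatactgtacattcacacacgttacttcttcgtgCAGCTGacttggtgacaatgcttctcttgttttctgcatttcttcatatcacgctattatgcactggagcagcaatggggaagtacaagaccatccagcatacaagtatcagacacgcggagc
Enpp6: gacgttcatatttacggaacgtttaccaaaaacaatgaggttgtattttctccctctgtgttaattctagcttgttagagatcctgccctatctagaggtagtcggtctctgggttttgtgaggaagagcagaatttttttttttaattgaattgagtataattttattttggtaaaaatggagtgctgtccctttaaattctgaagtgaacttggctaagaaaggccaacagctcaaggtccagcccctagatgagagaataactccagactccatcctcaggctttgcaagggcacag
The 9630013A20Rik window held 1 E-box, from base 178, and 0 matches to the other motifs. The Enpp6 window held 0 matches to any of the 3. Over all 32851 windows in the table, 18.7% held the SOX core, 16.3% the E-box and 19.3% the MYRF core, so these matches are a description of the letters only. The GC content of the windows was 42.7% for 9630013A20Rik and 40.3% for Enpp6.

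The 8 progenitor transcripts did not move together. Tnr, an extracellular matrix glycoprotein of the oligodendrocyte lineage, had 3982 CPM in committed precursors, 3023 CPM in progenitors without the 4 transcripts and 135 CPM in oligodendrocytes. Sox6, a transcription factor that holds back differentiation, was level between committed precursors (1140 CPM) and progenitors without the 4 transcripts (1138 CPM), against 69.1 CPM in oligodendrocytes. The other 6 were lower in committed precursors. Lhfpl3 had 1376 CPM against 4301 CPM in progenitors without the 4 transcripts, Vcan 462 against 1006 CPM, Megf11 167 against 573 CPM, Pdgfra 53.1 against 172 CPM, Cspg4 39.8 against 153 CPM and C1ql1 23.9 against 68.5 CPM. All 6 were above their oligodendrocyte level, which ran from 4.01 CPM for Pdgfra to 210 CPM for Lhfpl3. These 12 transcripts chose the groups, and their values support nothing else here.

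Each of the 4 transcripts could be looked at without having been used, by choosing nuclei again on the other 3. Among progenitors with at least 2 UMIs of the other 3, set against progenitors with 0 of them, Bmp4 was 7.24 times as high (2.61 to 24.8, from 19 and 5 UMIs), Enpp6 3.62 times (2.69 to 4.86, from 80 and 118 UMIs) and 9630013A20Rik 2.69 times (1.83 to 3.98, from 58 and 54 UMIs). Gpr17 was at 22.5 CPM in the chosen nuclei and 22.2 CPM in the others, a ratio of 1.01 (0.376 to 2.51) that rests on 8 and 16 UMIs. The intervals of 3 transcripts thus lay above 1, and that of Gpr17 spanned 1 with an upper bound below the ratios of the other 3. The median UMI totals of the nuclei chosen in this way were 2402.5 to 3070.5, against 1420 to 1537 in the others.

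Outside the 12 transcripts of the rule, 3743 genes averaged at least 50 CPM over committed precursors and progenitors without the 4 transcripts. Of these, 202 (5.4%) were at least 2-fold higher in committed precursors and 225 (6.01%) at least 2-fold lower, with a median log2 ratio of 0.03. The clearest group among them was a list of early oligodendrocyte differentiation genes. Like the other gene lists here, it was chosen with earlier results of these data known. Its counts are therefore a description and no independent support. Its 24 genes summed to 16714 CPM in committed precursors, 4566 CPM in progenitors without the 4 transcripts and 3302 CPM in oligodendrocytes. Relative to progenitors without the 4 transcripts the sum was 3.66 times as high (3.51 to 3.82), and 14 of the 17 genes measured were at least 2-fold higher, against the 5.4% over all genes. The median log2 ratio of the 17 was 1.72.

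Frmd4a, a scaffold protein of cell polarity and junctions, made up 38.7% of the list's UMIs in committed precursors and had 6466 CPM there, 1144 CPM in progenitors without the 4 transcripts and 430 CPM in oligodendrocytes. That was a ratio of 5.65 (5.21 to 6.13) over the progenitors. It was not shared by all committed precursors: the 33 nuclei of a progenitor-led cluster, described with the clusters, had 0.612 times the level of all progenitors without the 4 transcripts. Their 700.2 CPM lay nearer to the 792 CPM of progenitors without the 4 transcripts in that same cluster. Without Frmd4a the list still stood 2.99 times as high (2.84 to 3.15). Frmd4a was not restricted to the lineage, since the 5573 other distal nuclei had 1370 CPM. Because the committed precursors were deeper, nuclei were also thinned to 1000 UMIs each, which left 87 committed precursors, 282 progenitors without the 4 transcripts and 1203 oligodendrocytes. Frmd4a was then found in 75.9, 55.0 and 29.2% of them, and before thinning in 91.0, 61.6 and 49.9%. Tcf7l2, a transcription factor of the Wnt pathway that marks the passage to the myelinating oligodendrocyte, had 1198 CPM in committed precursors, 214 CPM in progenitors without the 4 transcripts and 122 CPM in oligodendrocytes. After thinning, its UMIs were found in 59.8, 16.7 and 9.48% of these groups (75.3, 25.4 and 18.7% before). Cnksr3, a scaffold of kinase signalling, had 707, 97.7 and 211 CPM in the same order, and the small GTPase Rras2 had 141, 18.9 and 29.6 CPM, though in the 33 nuclei of the progenitor-led cluster it was at 0.52 times the progenitors, from 1 UMI. Parvb, an adaptor of integrin adhesion, had 151 CPM in committed precursors, 18.9 CPM in progenitors without the 4 transcripts and 18.8 CPM in oligodendrocytes. Bcas1, a marker of oligodendrocytes in the act of forming myelin, had 1445, 437 and 547 CPM, and Fyn, the kinase that relays contact with the axon, 1121, 318 and 166 CPM. The only member of the list at least 2-fold lower was Samd4, an RNA-binding regulator of translation, with 138 CPM in committed precursors and 300.2 CPM in progenitors without the 4 transcripts. The plot of single genes shows where these lie among all genes measured.

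**Figure D2:**
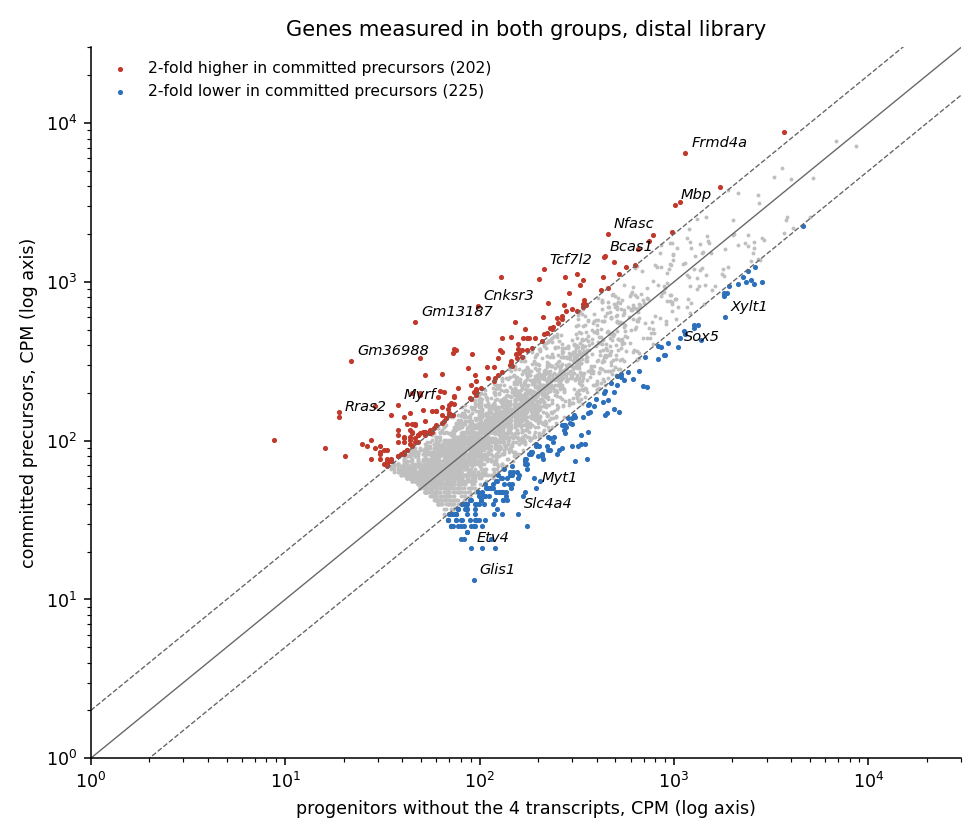
Level of each of 3743 genes in committed precursors (vertical) and in progenitors without the 4 transcripts (horizontal), in CPM on log axes, without the 12 transcripts of the rule. The solid line marks equal levels and the dashed lines 2-fold differences. Red points (202 genes) are at least 2-fold higher and blue points (225 genes) at least 2-fold lower, with Frmd4a (6466 and 1144 CPM) the highest of the named genes.

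The 2 largest ratios belonged to transcripts inside the Frmd4a gene. Gm36988 had 319 CPM in committed precursors and 21.9 CPM in progenitors without the 4 transcripts, a ratio of 14.6 (8.50 to 26.9). Gm13187 had 563 and 46.6 CPM, a ratio of 12.1 (8.30 to 18.1), and stood at 87.0 times its oligodendrocyte level. In the 33 nuclei of the progenitor-led cluster, Gm36988 was at 0.451 times and Gm13187 at 0.846 times the progenitors without the 4 transcripts. Gm36988 (chr2:4316479-4318886, plus strand, sense intronic) and Gm13187 (chr2:4287595-4301167, minus strand) both lie within Frmd4a (chr2:4017717-4614043, plus strand) on GRCm38. Whether the counting used strand is not stated, so their UMIs cannot be told apart with certainty from Frmd4a. The same reserve holds for 9630013A20Rik, which is annotated as antisense. Of the remaining genes with the largest ratios, Rinl had 101 and 8.75 CPM, the non-coding 9530059O14Rik 1071 and 128 CPM, the non-coding 9130019P16Rik 329 and 49.6 CPM, and Bfsp2, an intermediate filament protein first known from the lens, 165 and 29.2 CPM.

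Progenitor genes that the rule did not use were lower. The list of 16 further progenitor genes summed to 9988 CPM in committed precursors, 20758 CPM in progenitors without the 4 transcripts and 3498 CPM in oligodendrocytes, a ratio of 0.48 (0.464 to 0.499) to the progenitors. Of 14 measured, 8 were at least 2-fold lower and 0 higher, against 6.01% and 5.4% of all genes. Xylt1, the enzyme that starts chondroitin and heparan sulfate chains, had 603 CPM in committed precursors, 1832 CPM in progenitors without the 4 transcripts and 48.1 CPM in oligodendrocytes. Sox5, a relative of Sox6, had 388, 1049 and 104 CPM. The cell adhesion gene Pcdh15 had 970, 2592 and 407 CPM, and Ptprz1, a receptor phosphatase that binds chondroitin sulfate, 345, 893 and 55.8 CPM.

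Some matrix and ion channel genes were lower as well, against 6.01% of all genes at least 2-fold lower and 5.4% higher. Of 11 matrix and proteoglycan genes measured, 6 were at least 2-fold lower in committed precursors and 0 higher, among them the chondroitin sulfotransferase Chst11 (151 against 519 CPM in progenitors without the 4 transcripts) and the glypican Gpc5 (428 against 1373 CPM). Of 34 channel and glutamate receptor genes, 8 were at least 2-fold lower, 0 were higher and the other 26 lay within 2-fold, including the A-type potassium channels Kcnd3 (93.0 against 322 CPM) and Kcnd2 (1004 against 2832 CPM) and the AMPA receptor partner Cacng4 (149 against 455 CPM). The genes with the smallest ratios were the transcription factor Glis1 (13.3 against 93.3 CPM, a ratio of 0.142 with an interval of 0.0447 to 0.350), the ubiquitin ligase Sh3rf3 (29.2 against 176 CPM), the non-coding Gm42948 (21.3 against 120 CPM), which lies antisense within Lhfpl3, and the collagen Col5a3 (21.3 against 103 CPM). C130073E24Rik, Mir9-3hg and Gm3764, all non-coding, the bicarbonate transporter Slc4a4, and the transcription factors Etv4 and Myt1 followed with ratios of 0.208 to 0.258. Lhfpl3 belongs to the rule, and the strand setting is not stated. The UMIs of Gm42948 therefore cannot be told apart with certainty from those of Lhfpl3. Slc4a4 is also an astrocyte marker, and the 10 astrocyte markers summed to 616 CPM in committed precursors and 1270 CPM in progenitors without the 4 transcripts. The part of other cells' RNA in these lower levels was not tested.

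The sum of the myelin list in committed precursors lay between those of the other groups. The 30 myelin and mature genes summed to 10540 CPM in committed precursors, 5673 CPM in progenitors without the 4 transcripts and 17418 CPM in oligodendrocytes. The sum was 1.86 times (1.78 to 1.94) that of the progenitors and 0.61 times (0.586 to 0.625) that of the oligodendrocytes. The list holds 7 of the genes that chose the oligodendrocytes, and without them the sums were 8322, 4523 and 12780 CPM, or 1.84 times (1.75 to 1.93) the progenitors and 0.651 times (0.628 to 0.675) the oligodendrocytes. Of 24 genes measured, 6 were at least 2-fold higher than in the progenitors, against 5.4% of all genes, and 3 of the 17 that chose no group. Of 19 measured against oligodendrocytes, none of which chose the groups, 5 were at least 2-fold lower, against 3.57% of all genes. Mbp, a structural protein of compact myelin, had 3047 CPM in committed precursors, 1013 CPM in progenitors without the 4 transcripts and 4405 CPM in oligodendrocytes. Ermn, a cytoskeletal protein of the mature sheath and 1 of the genes that chose the oligodendrocytes, had 82.3 CPM in committed precursors and 30.6 CPM in progenitors without the 4 transcripts. Anln, an actin-binding protein of myelin, had 236, 96.2 and 575 CPM in committed precursors, progenitors without the 4 transcripts and oligodendrocytes. The higher level of Anln turned round when the progenitor share was raised to 0.8%, to 0.616 times the progenitors without the 4 transcripts. Car2, a carbonic anhydrase of mature oligodendrocytes, had 95.6 CPM in committed precursors, 83.1 CPM in progenitors without the 4 transcripts and 243 CPM in oligodendrocytes, and was thus near the progenitor level. Lipid synthesis genes were placed likewise, with 3227, 2151 and 4506 CPM over 25 genes, and Elovl7, Fa2h and Gal3st1, enzymes of very long-chain fatty acids and galactolipids, at least 2-fold higher than in the progenitors out of 13 measured.

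Among lineage transcription factors, 3 of 18 measured were at least 2-fold higher and 3 at least 2-fold lower, against 5.4% and 6.01% of all genes. Besides Tcf7l2, Myrf, the factor that switches on myelin genes, had 167 CPM in committed precursors, 37.9 CPM in progenitors without the 4 transcripts and 147 CPM in oligodendrocytes, and so stood at the oligodendrocyte level (a ratio of 1.14). The zinc finger gene St18 had 3188, 1080 and 4437 CPM. Etv5 (31.9 against 106 CPM), a factor downstream of growth factor signalling, Sox5 and the homeobox gene Prrx1 (29.2 against 72.9 CPM) were lower. The remaining 12 lay within 2-fold: Zfp536, Zeb2, Klf9, Chd7, Sox10, Yy1, Chd8, Tcf12, Tcf4, Nfib, Nfia and Thrb had ratios of 1.95 for Zfp536 down to 0.503 for Thrb, the nuclear receptor for thyroid hormone. Sox10, which marks the whole lineage, had 143 CPM in committed precursors, 125 CPM in progenitors without the 4 transcripts and 107 CPM in oligodendrocytes. Olig1 and Olig2, the other factors that define the lineage, were too low to compare, with 16 and 3 UMIs in committed precursors and 37 and 16 UMIs in progenitors without the 4 transcripts.

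The plot of list sums sets all 17 lists side by side, and its counts are read against the 5.4% of all genes at least 2-fold higher and the 6.01% lower. Wnt pathway genes summed to 3079 CPM in committed precursors, 1790 CPM in progenitors without the 4 transcripts and 2439 CPM in oligodendrocytes. Tcf7l2, which is also in the early differentiation list, made up 1198, 214 and 122 CPM of these sums. Out of 10 measured, Tcf7l2, its relative Tcf7l1 (194, 49.6 and 31.8 CPM) and the formin Daam2 (425, 208 and 788 CPM) were at least 2-fold above the progenitors. Of 29 adhesion and guidance genes, 5 were at least 2-fold higher and 1 lower. Nfasc, an adhesion molecule that oligodendrocytes use at the paranode, had 2008, 459 and 778 CPM. The plexin Plxnb3 had 263, 64.1 and 248 CPM, the ephrin receptor Ephb1 1028, 341 and 1186 CPM, and the semaphorin receptor Nrp2 37.2, 77.2 and 18.5 CPM. Of 28 cytoskeletal genes, 6 were at least 2-fold higher and 0 lower, among them Map1b (1071, 275 and 282 CPM), which binds microtubules, and Tppp (109, 37.9 and 90.3 CPM), which nucleates them. Of 10 growth factor and G protein receptors, the lysophosphatidic acid receptor Lpar1 was higher (202 against 65.6 CPM) and the neurotrophin receptor Ntrk3 lower (263 against 536 CPM).

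**Figure D3:**
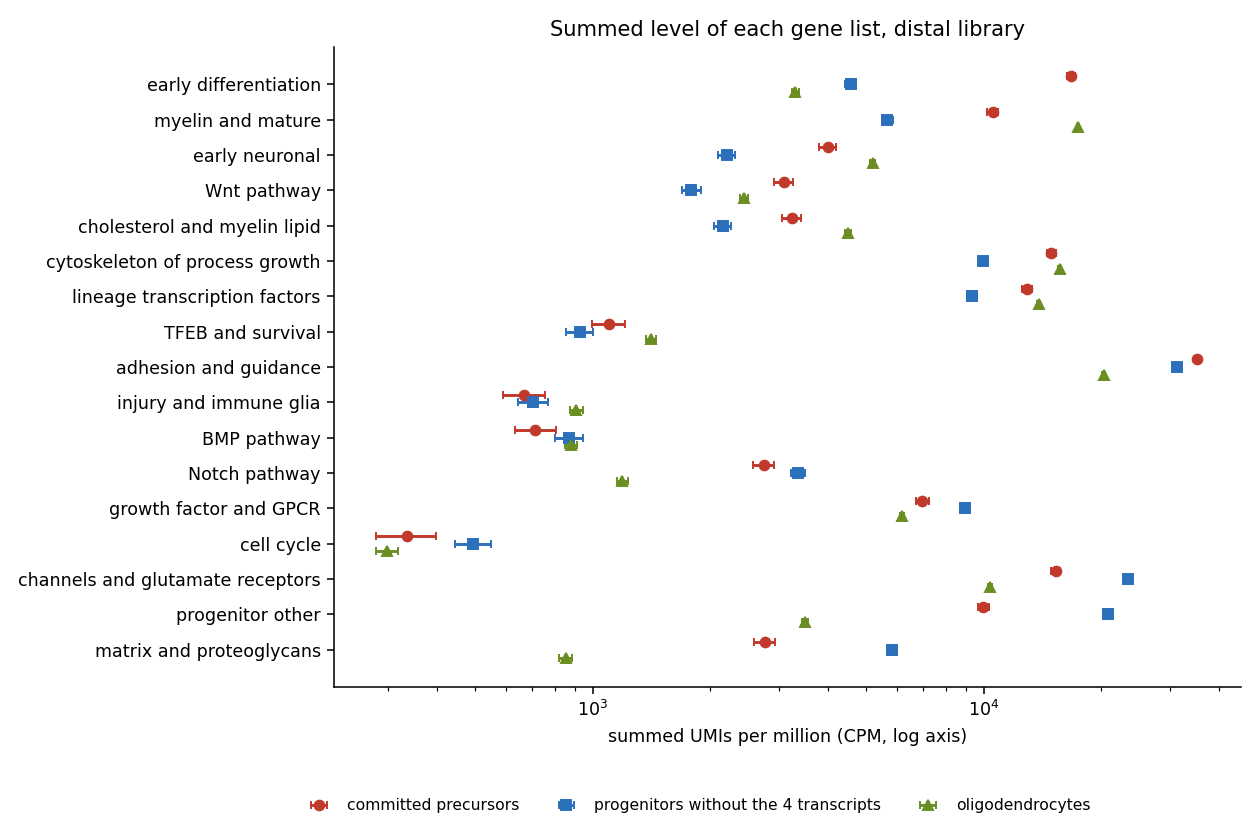
Summed level of each of 17 gene lists in committed precursors, progenitors without the 4 transcripts and oligodendrocytes, in CPM on a log axis with exact Poisson 95% intervals. Lists are ordered by the ratio of committed precursors to progenitors without the 4 transcripts. The 12 transcripts of the committed and progenitor rules are left out, whereas 7 genes that chose the oligodendrocytes remain in the myelin list. Early differentiation genes (16714, 4566 and 3302 CPM) stand above both neighbours, whereas myelin genes (10540, 5673 and 17418 CPM) lie between them.

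In the remaining lists few genes passed 2-fold. Of 7 BMP pathway genes measured, 0 passed 2-fold against the progenitors without the 4 transcripts. The same held for 6 Notch pathway genes and 4 injury and immune genes. Over all genes only 5.4% were at least 2-fold higher and 6.01% lower, so counts of 0 do not set such short lists apart. Bmp4 belongs to the rule and was left out of these counts. The BMP sums were 715 CPM in committed precursors and 870 CPM in progenitors without the 4 transcripts, and the injury sums 669 and 705 CPM. Cell cycle genes summed to 335 and 496 CPM, a ratio of 0.675 (0.546 to 0.831), with 3 of 27 genes high enough to be measured and 0 past 2-fold. In the list of survival and TFEB genes the anti-apoptotic Bcl2 was lower, at 53.1 CPM in committed precursors and 141 CPM in progenitors without the 4 transcripts, and was the only 1 of 6 measured to pass 2-fold. The early neuronal list summed to 3990 CPM in committed precursors and 2204 CPM in progenitors without the 4 transcripts, a ratio of 1.81 (1.68 to 1.95), of which St18 made up 3188 and 1080 CPM. Of its 6 genes measured, St18 was at least 2-fold higher, and Myt1 (50.5 against 195 CPM) and the RNA-binding Elavl4 (47.8 against 133 CPM) were lower. Neurod1, the gene for which the line is named, had 1 UMI in the 89 committed precursors, 5 in the 378 progenitors without the 4 transcripts and 21 in the 1314 oligodendrocytes. No member held over 1% of its UMIs in any of 10 marker lists of other cell classes. For myeloid RNA this cut says little. The 817 other nuclei of a myeloid-led cluster, described with the clusters, averaged only 769 CPM of the myeloid list. The neuron list summed to 1458 CPM in committed precursors and 1965 CPM in progenitors without the 4 transcripts, and the myeloid list to 284 and 233 CPM.

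Against oligodendrocytes 3641 genes were measured, leaving out the 20 genes of both rules. In committed precursors 363 (9.97%) were at least 2-fold higher and 130 (3.57%) at least 2-fold lower. Early differentiation genes were at least 2-fold higher in 13 of 17, a larger share than the 9.97% of all genes, and their sum was 5.06 times as high (4.91 to 5.22). Itpr2, an intracellular calcium channel of forming oligodendrocytes, had 608 CPM in committed precursors and 59.2 CPM in oligodendrocytes. Progenitor genes were higher in 10 of 13, matrix genes in 8 of 10 and channel and receptor genes in 14 of 32. Apart from Frmd4a and the 2 transcripts inside it, the largest ratios belonged to the actin-binding protein Afap1l2 (191 against 8.63 CPM), the sulfotransferase Ust (1341 against 75.2 CPM), the non-coding Gm13052 (329 against 19.1 CPM), Ppfibp1 (550 against 32.7 CPM) and the receptor phosphatase Ptpro (375 against 27.4 CPM). Afap1l2 and Ppfibp1 were level with the progenitors without the 4 transcripts, at ratios of 0.994 and 1.01. The lowest ratios belonged to the non-coding 4930420G21Rik (53.1 against 232 CPM), Gm32122 (69.1 against 282 CPM) and Gm12828 (50.5 against 179 CPM), and to Tnfaip6, Slc48a1, Rnf112, Trim59 and Gm29455, which ran from 0.282 to 0.314 of the oligodendrocyte level.

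Genes outside the rule were also followed over the count of committed UMIs. Progenitors with 0, 1, 2, 3 and 4 or more such UMIs numbered 378, 98, 35, 16 and 38. Their early differentiation genes summed to 4566, 6121, 11513, 20193 and 18663 CPM, with the last step not above the one before it. The other progenitor genes summed to 20758, 15668, 11416, 9492 and 9339 CPM over the same steps. Myelin genes summed to 5673, 7627, 11873, 9626 and 10046 CPM, and did not go on increasing after 2 UMIs. Frmd4a stood at 1144, 1870, 3489, 7881 and 7724 CPM, and Tcf7l2 at 214, 385, 861, 1611 and 1278 CPM. The median depth was 1425, 1924, 2779, 3001 and 2727 UMIs, and its part in these steps was not tested. Nuclei with exactly 2 UMIs, just inside the threshold, had 1.88 times (1.75 to 2.02) the early differentiation sum of nuclei with exactly 1, just outside it.

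**Figure D4:**
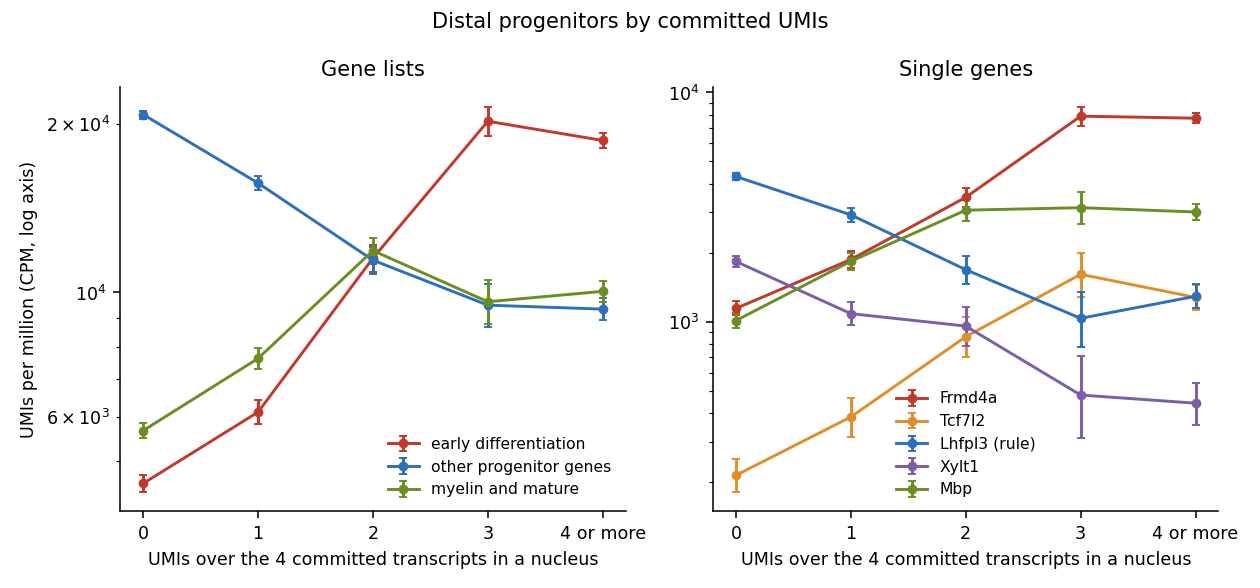
Summed level of 3 gene lists (left) and of 5 single genes (right) in distal progenitors by the number of UMIs over the 4 committed transcripts, in CPM on log axes with exact Poisson 95% intervals. Early differentiation genes go up to 20193 CPM at 3 UMIs and other progenitor genes go down to 9339 CPM at 4 or more. Lhfpl3 belongs to the progenitor rule.

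The 89 nuclei were not of 1 kind. When all distal nuclei were clustered without regard to the rule, 33 committed precursors lay in a cluster of 64 nuclei whose leading genes were Gm13187, Gm36988, Tcf7l2, 9630013A20Rik, Rras2, Cnksr3, Pik3r3, Prom1, Bfsp2 and Frmd4a. It is called the Frmd4a-led cluster here. Another 33 lay in a cluster of 375 nuclei led by Gm38505, Mybpc1, Vcan, Xylt1, Cspg4, Megf11, Itga9 and Pdgfra, which also held 263 of the progenitors without the 4 transcripts. It is called the progenitor-led cluster. A further 18 lay in a cluster of 835 nuclei led by the myeloid genes Inpp5d, Ikzf1, Dock8, Ly86 and Runx1, and 5 in other clusters. The 378 progenitors without the 4 transcripts were not of 1 kind either. Besides the 263, 24 lay in the myeloid-led cluster and 3 in the Frmd4a-led cluster. Others lay in clusters led by other genes, such as 19 in one led by A2m, Glis3 and Gfap and 17 in one led by Syt2, Etl4 and Cdh18. The leading genes of the Frmd4a-led cluster include 9630013A20Rik and early differentiation genes. Those of the progenitor-led cluster are progenitor genes, several of them in the rule, and none of the 4 committed transcripts is among its 10 leading genes. The leading genes of the myeloid-led cluster go against the label. The plot of single nuclei shows this split.

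**Figure D5:**
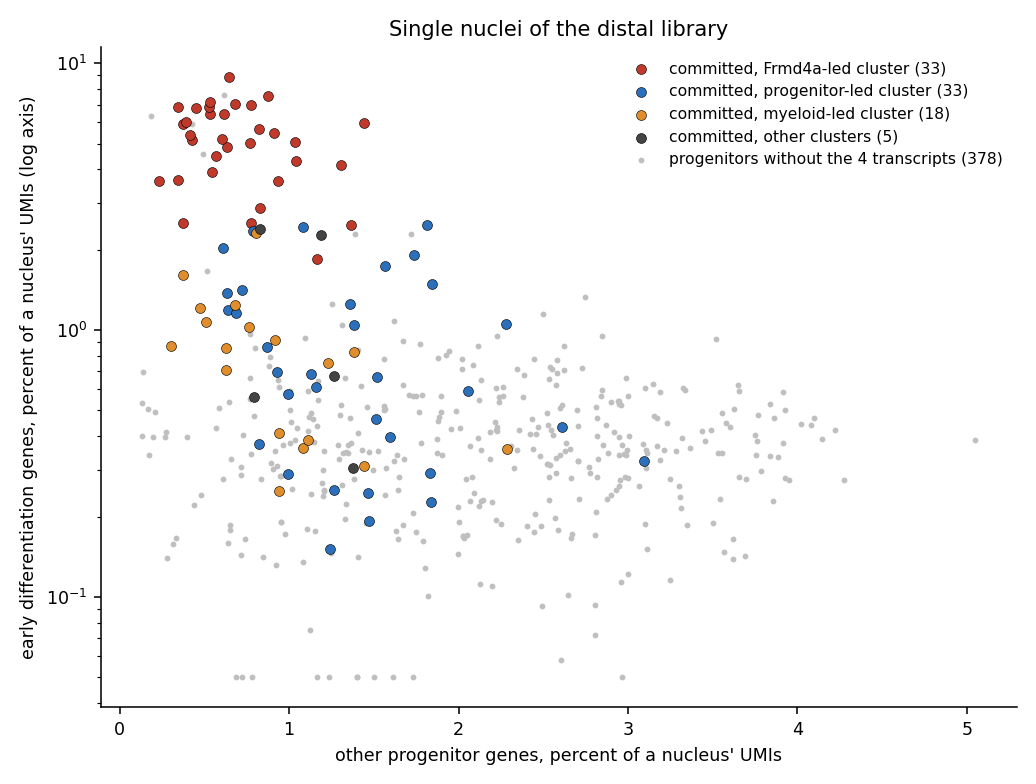
Share of each nucleus' UMIs in early differentiation genes (vertical, log axis) and in other progenitor genes (horizontal), for the 89 committed precursors coloured by cluster and the 378 progenitors without the 4 transcripts in grey. Nuclei without an early differentiation UMI are drawn at 0.05. The 33 nuclei of the Frmd4a-led cluster lie at 1.84 to 8.86% early differentiation genes, and the 33 of the progenitor-led cluster at 0.151 to 2.48%.

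Committed precursors of the Frmd4a-led cluster carried most of the early differentiation signal. The list made up 48826 CPM in them, against 7179 CPM in committed precursors of the progenitor-led cluster, a ratio of 6.80 (6.28 to 7.37). Clusters were formed from these genes among others, so the ratio describes the split and does not test it. Frmd4a alone had 22848 and 700.2 CPM. Counts of Frmd4a per nucleus ran from 5 to 118 with a median of 54 in the Frmd4a-led cluster, and from 0 to 7 with a median of 2 in the progenitor-led cluster. The 2 sets of nuclei barely overlapped, with 10 or more Frmd4a UMIs in 32 of 33 and in 0 of 33. Tcf7l2 had 4025 and 316 CPM, Cnksr3 2460 and 108 CPM, Pik3r3 3864 and 187 CPM and Nfasc 5678 and 947 CPM. In committed precursors of the progenitor-led cluster Frmd4a was not above the progenitors without the 4 transcripts, at 0.612 times the level of all 378 (0.473 to 0.781). Progenitors without the 4 transcripts in that same cluster had 792 CPM (710 to 881), against 700.2 CPM (547 to 883) in these committed precursors.

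Progenitor genes showed the split from the other side. The list of other progenitor genes summed to 7231 CPM in committed precursors of the Frmd4a-led cluster and 13293 CPM in those of the progenitor-led cluster, against 20758 CPM in progenitors without the 4 transcripts. In the Frmd4a-led cluster the progenitor share that chose the nuclei came from Tnr (584 UMIs) and Sox6 (134 UMIs), while Pdgfra, Cspg4 and C1ql1 had 1 UMI each and Megf11 had 3. In the progenitor-led cluster Tnr had 428 UMIs, Lhfpl3 199, Sox6 135, Vcan 86, Megf11 19 and Pdgfra 9. Of the 4 committed transcripts, Gpr17 was found in 2 and 9630013A20Rik in 28 of the 33 nuclei of the Frmd4a-led cluster, against 9 and 12 of the 33 in the progenitor-led cluster, and Bmp4 in 5 against 10. Their median depths were 2051 and 2870 UMIs.

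A further 6 genes, chosen after their values were seen, were high in committed precursors of both clusters. Bcas1 was 5.48 times the level of progenitors without the 4 transcripts in the Frmd4a-led cluster (4.55 to 6.59) and 3.72 times in the progenitor-led cluster (3.06 to 4.51). Myrf was 5.57 times (2.84 to 10.7) and 5.99 times (3.26 to 10.9) their level. St18 was at 3.61 and 3.39 times, Fyn at 6.96 and 3.29 times, Mbp at 4.76 and 2.80 times, and Plxnb3 at 6.01 and 3.08 times. They were not particular to these clusters, since in committed precursors of the myeloid-led cluster the same genes stood at 2.19 times (Fyn) to 3.91 times (Plxnb3). Mbp there was near the level of that cluster's 817 other nuclei, at 2434 and 2365 CPM. So was the myelin sum, at 9929 and 9997 CPM, whereas the early differentiation sums were 8271 and 4177 CPM. Between the Frmd4a-led and progenitor-led clusters the myelin list as a whole was level in committed precursors, at 11418 and 10995 CPM. Its members were not: Mog, a protein of the outer myelin surface, was at 0.957 times (0.462 to 1.79) the level of progenitors without the 4 transcripts in the Frmd4a-led cluster and at 3.11 times (2.13 to 4.47) in the progenitor-led cluster, from 11 and 45 UMIs. Mobp, a further structural myelin protein, was at 1.38 times in the Frmd4a-led and 2.48 times in the progenitor-led cluster. Against progenitors without the 4 transcripts of their own cluster, committed precursors of the progenitor-led cluster had 1.69 times (1.55 to 1.84) the early differentiation sum, 1.90 times (1.77 to 2.04) the myelin sum and 0.519 times (0.490 to 0.550) the sum of other progenitor genes.

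The rule took in 33 of the 64 nuclei of the Frmd4a-led cluster. The other 31 nuclei had 51570 CPM of early differentiation genes, 23584 CPM of Frmd4a and 4932 CPM of Tcf7l2, close to the 33 that were chosen. Of these 31, 21 fell under the progenitor share, of which 16 held at least 2 UMIs of the 4 transcripts, and the other 10 met the share with fewer than 2. The 31 had 2777 CPM of Tnr, against 7256 CPM in the chosen 33.

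The 18 committed precursors of the myeloid-led cluster were deep nuclei, with a median of 7931 UMIs, and held 46.6% of all UMIs of the 89. Their early differentiation genes summed to 8271 CPM, and their myeloid markers to 422 CPM, against 174 CPM in committed precursors of the Frmd4a-led and 158 CPM in those of the progenitor-led cluster. The other 817 nuclei of the myeloid-led cluster had 769 CPM of myeloid markers. Xist and Y-linked UMIs occurred together in 11 of the 18 committed precursors of this cluster. In those of the Frmd4a-led and progenitor-led clusters they did so in 11 of 33 and 10 of 33. For the progenitor-led cluster this was 30.3%, against 13.3% of its progenitors without the 4 transcripts, at median depths of 2870 and 1427 UMIs. The part of doublets was not tested, in the 18 nuclei of the myeloid-led cluster or in the other 71. Without the 18, the early differentiation sum of the other 71 was 5.27 times (5.04 to 5.52) that of the progenitors without the 4 transcripts. Of 17 genes measured, 16 were at least 2-fold higher and 1 lower, against 7.13% and 10.4% of all genes. The sums of other progenitor genes and myelin genes, at 0.518 times (0.495 to 0.542) and 1.95 times (1.85 to 2.06), stayed near those of all 89.

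In the core library the same rule found 7 of 16362 nuclei, or 0.0428% (0.0172 to 0.0881%), against 89 of 7452 in the distal library. Core nuclei that met the progenitor share were also fewer, with 295 (1.80%, 1.60 to 2.02%) against 565 (7.58%, 6.99 to 8.21%) in the distal library. At least 2 UMIs of the 4 transcripts were held by 7 of the 295 (2.37%, 0.959 to 4.83%) and 89 of the 565 (15.8%, 12.8 to 19.0%). The core nuclei were also shallower. The median was 1444 UMIs in the 7, against 2870 in the 89 distal ones. Among nuclei that met the share without the 4 transcripts it was 969 in the core and 1425 in the distal library. The part of depth in these shares was not tested. With 1 library per region, and with libraries that differ in Xist, the region, the animals and the preparation cannot be told apart. The core nuclei that met the progenitor share also carried more neuronal RNA: neuron markers summed to 6172 CPM in the 273 core nuclei without the 4 transcripts, against 1965 CPM in the 378 distal ones, and Pdgfra had 3 UMIs in them. Of the 7 core nuclei, 6 had 12 to 46 Frmd4a UMIs at totals of 1099 to 1758, and the deepest, with 5259 UMIs, had 4. Frmd4a stood at 14018 CPM in the 7 (12081 to 16178) and at 2035 CPM in core nuclei without the 4 transcripts, Tcf7l2 at 5172 and 87.7 CPM, and the early differentiation list at 32759 and 4116 CPM. Gpr17 had 0 UMIs in the 7 nuclei, 1 UMI was Bmp4, 3 were 9630013A20Rik and 12 were Enpp6. These nuclei played no part in choosing the distal ones. Their Frmd4a level lay between those of distal committed precursors in the Frmd4a-led cluster (22848 CPM) and in the progenitor-led cluster (700.2 CPM).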

How the data were processed

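Nuclei of 2 libraries, 1 per region, were analysed from UMI counts per gene, which the authors deposited as filtered matrices made with Cell Ranger 7.1.0, per the file headers. The submitters' processing notes also name mm10, GRCh38 and Seurat, with no role given, and the annotation and strand setting are not given in the sources used here. Of 32285 features, 99.6% matched GENCODE M21, whose GRCm38 positions are printed. No nucleus was filtered and no doublet caller was run.

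Raw UMIs were summed over the nuclei of a group and divided by the group's total (CPM). Genes with a mean of at least 50 CPM over both groups were counted as higher or lower at 2-fold. Those named are the 10 (against progenitors) or 8 (against oligodendrocytes) largest ratios in each direction with at most 25% of UMIs in 1 nucleus, up to 3 per gene list and direction, the measured lineage transcription factors, the 12 rule genes and Neurod1. The oligodendrocyte threshold is 2 times the share over the whole distal library. Distal nuclei were clustered on 2000 variable genes, 40 principal components and 15 neighbours with the Leiden method at resolution 1, which gave 22 clusters. The tools were Python 3.11.15, numpy 2.4.6, pandas 2.3.3, scipy 1.17.1, scikit-learn 1.9.0, leidenalg 0.10.2 and matplotlib 3.10.9, and the counting step was tested on simulated data. Other thresholds, filters, scalings and depth matching were tried. The members, gene lists and rules were chosen with earlier results of these data known, and the splits by cluster were added after seeing the data.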

Additional observations from a re-analysis of the deposited data

How the results depend on the processing

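With 1 library per region and no replicates, stability refers to settings, not to animals. No paired analysis was possible because each region has 1 library and no replicate numbers. Over the 146 list and gene ratios, 1524 values were obtained under the planned settings that could move a ratio. Of these, 1079 lay within the counting interval of the reported value and 442 outside it. A further 3 belonged to ratios past 2-fold and changed side of 1. A change of side was counted only for ratios past 2-fold, and some smaller ratios also crossed 1. Under the mean of per-nucleus CPM, lineage transcription factors against oligodendrocytes went from 0.935 to 1.08. Thinning to 1000 UMIs moved 72 shares of nuclei with a UMI beyond their intervals and left 9 within them. At least 3 committed UMIs left 54 committed precursors and 2 core nuclei, and 205 genes lower than in oligodendrocytes. A progenitor share of 0.8% left 42 and 3 nuclei, with 462 genes higher and 494 lower than in progenitors without the 4 transcripts and 525 lower than in oligodendrocytes, and reversed Anln against these progenitors (0.616) and Dner against oligodendrocytes (0.592). A share of 0.2% gave 157 and 17 nuclei, with 147 genes lower than in the progenitors and 68 lower than in oligodendrocytes. With nuclei of progenitor-led clusters only, genes numbered 351 higher and 390 lower than in the progenitors and 276 lower than in oligodendrocytes. Without nuclei above 3 times the median UMIs these were 313, 357 and 347. The mean of per-nucleus CPM gave 297 genes lower than in oligodendrocytes. A minimum of 20 CPM gave 418 higher and 556 lower than in the progenitors, and 693 higher and 314 lower than in oligodendrocytes. With no minimum these counts were 3766, 1824, 8344 and 1181, since genes of few UMIs then pass. Doubling the oligodendrocyte threshold gave 539 lower, and C4b reversed (2.51). Among the settings added after seeing the data, leaving out the 18 nuclei of the myeloid-led cluster gave 350 genes lower than in the progenitors and 254 lower than in oligodendrocytes. The 33 nuclei of the Frmd4a-led cluster alone gave 506 higher and 656 lower than in the progenitors and 593 lower than in oligodendrocytes, and reversed Ntrk2 (0.876), Ntrk3 (0.62) and Cacng4 (0.79) against oligodendrocytes. The 33 of the progenitor-led cluster alone gave 340 higher than in the progenitors and 232 lower than in oligodendrocytes, and reversed Gm36988 (0.451), Gm13187 (0.846), Rras2 (0.52) and Frmd4a (0.612) against the progenitors. For Frmd4a, the 33 had 700.2 CPM, against 792 CPM in progenitors without the 4 transcripts of the same cluster. The cause of the changes under these settings was not tested.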
